A study of Mus musculus with 6 samples.

Results

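The Hmx and Dlx homeobox genes were chosen by symbol in the gene list of the count matrices, and all 9 of them, 3 Hmx genes and 6 Dlx genes, were found among 32285 genes. They were measured in single cells from 5 kinds of autonomic ganglia of mouse pups at postnatal day 5. All pups carried a Cre transgene together with RosatdT, a Cre-dependent tdTomato reporter, and both sexes were taken. The sphenopalatine ganglion (parasympathetic), the stellate ganglion, the lumbar chain and the coeliac complex (sympathetic) each gave 1 library, and the pelvic ganglion gave 2. The sphenopalatine, stellate and first pelvic libraries were made in a first round with v2 reagents, and the coeliac, lumbar and second pelvic libraries in a second round, at another facility, with v3 reagents. The cells were not sorted, so that every library also held glial cells, fibroblasts, endothelial cells, mural cells and macrophages, and how many pups were pooled in each library is not given in the sources used here.

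After filtering, 21442 of 30777 barcodes were kept, of which 7052 were neurons (237 to 2724 in a library) and 8468 glial cells (574 to 2899). The median neuron held 26651 to 108598 UMIs (unique molecular identifiers, 1 for each captured RNA molecule) and the median glial cell 3522 to 12151. The library totals ran from 39353313 to 113352559 UMIs. Transmitter markers of the sphenopalatine and stellate neurons were set beside their labels. Th, Dbh and Slc6a2 of noradrenergic neurons summed to 67.7 CPM in sphenopalatine and 3905 in stellate neurons, the lowest and highest of the libraries. Chat, Slc18a3 and Slc5a7 of cholinergic neurons summed to 587 and 27.6. These markers cannot tell the sympathetic ganglia from each other, and the sums of the other libraries are not given here. Glial markers summed to 28.9 to 152 in neurons against 8171 to 12884 in glial cells. Pairs of libraries shared between 0 and 49 cell barcodes. The level of a gene is given as CPM, its UMIs per 1000000 UMIs of that class of cells in the library, with a 95% Poisson interval. A share is the percentage of cells with at least 1 UMI, with a 95% Wilson interval. Both intervals cover counting error within a library and not the spread between animals. Only the pelvic ganglion had a second library. The pelvic libraries differed in round, facility and reagents, and whether they came from separate animals is not stated. The difference between them thus cannot be read as a spread between animals.

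Homeobox genes encode transcription factors that bind DNA through the homeodomain. Hmx genes (Hmx1, and the neighbouring Hmx2 and Hmx3) are known from the inner ear, the eye, the hypothalamus and peripheral sensory and sympathetic ganglia. Dlx genes, the vertebrate relatives of Distal-less in the fly, lie in tail-to-tail pairs (Dlx1 with Dlx2, Dlx3 with Dlx4, Dlx5 with Dlx6) and are known from jaw and limb patterning and from GABAergic neurons of the forebrain. In the annotation of GRCm38 (GENCODE M21), Hmx1 lies on chromosome 5 (chr5:35389108-35399730, plus strand), and Hmx3 (chr7:131542867-131544925) lies 3848 bases before Hmx2 (chr7:131548773-131558014), both on the plus strand of chromosome 7. Dlx1 (chr2:71528113-71533981, plus) and Dlx2 (chr2:71543408-71546754, minus) are 9427 bases apart, Dlx6 (chr6:6863334-6868568, plus) and Dlx5 (chr6:6877805-6882085, minus) are 9237 bases apart, and Dlx3 (chr11:95120119-95125296, plus) and Dlx4 (chr11:95140447-95146263, minus) are 15151 bases apart.

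The homeobox of each gene, the 180 coding bases for the homeodomain, shows how alike in sequence members found in different cells are. The boxes of 5 genes are given here from the GENCODE M21 transcripts, 5′ to 3′, with 18 bases in capitals that encode the conserved core of the DNA-recognition helix. Hmx2, Dlx5 and Dlx6 were found in sphenopalatine neurons, and Dlx1 and Dlx2 are the glial pair.
Hmx2: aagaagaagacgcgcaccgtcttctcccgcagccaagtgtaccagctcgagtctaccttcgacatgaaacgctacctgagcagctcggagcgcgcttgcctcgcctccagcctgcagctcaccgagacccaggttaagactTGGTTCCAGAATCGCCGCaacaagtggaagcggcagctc
Dlx5: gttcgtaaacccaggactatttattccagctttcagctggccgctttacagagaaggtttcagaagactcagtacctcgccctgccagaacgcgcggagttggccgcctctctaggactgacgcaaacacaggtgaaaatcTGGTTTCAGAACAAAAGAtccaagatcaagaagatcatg
Dlx6: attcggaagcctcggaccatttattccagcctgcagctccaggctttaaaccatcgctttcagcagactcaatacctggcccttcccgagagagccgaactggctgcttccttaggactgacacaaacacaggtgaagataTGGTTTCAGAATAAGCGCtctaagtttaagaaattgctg
Dlx1: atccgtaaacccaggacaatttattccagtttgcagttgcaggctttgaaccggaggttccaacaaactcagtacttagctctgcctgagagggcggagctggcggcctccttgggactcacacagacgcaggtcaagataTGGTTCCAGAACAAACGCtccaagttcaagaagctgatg
Dlx2: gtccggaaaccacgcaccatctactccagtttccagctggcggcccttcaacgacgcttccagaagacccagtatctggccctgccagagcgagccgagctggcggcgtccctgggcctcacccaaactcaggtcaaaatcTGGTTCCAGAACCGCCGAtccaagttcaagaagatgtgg
The Hmx2 box lies at chr7:131555603-131555782, within 1 exon. In every Dlx gene the box was split by an intron into 132 and 48 bases. The Dlx5 box lies at chr6:6879526-6879657 and chr6:6878441-6878488, the Dlx6 box at chr6:6865140-6865271 and chr6:6867041-6867088, the Dlx1 box at chr2:71531025-71531156 and chr2:71532264-71532311, and the Dlx2 box at chr2:71545384-71545515 and chr2:71544877-71544924. The boxes of 2 Dlx genes were identical at 66.1% to 81.7% of bases over the 15 pairs, and the Hmx2 box matched those of Dlx5 and Dlx6 at 86 and 93 of 180 bases. Among the Dlx genes, Dlx1 and Dlx6 encoded the same amino acid at 58 of 60 positions, and Dlx2 and Dlx5 at 56, although neither is a pair of neighbours on a chromosome. The neighbours Dlx5 and Dlx6 matched at 51 positions and the neighbours Dlx1 and Dlx2 at 52.

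**Figure D1:**
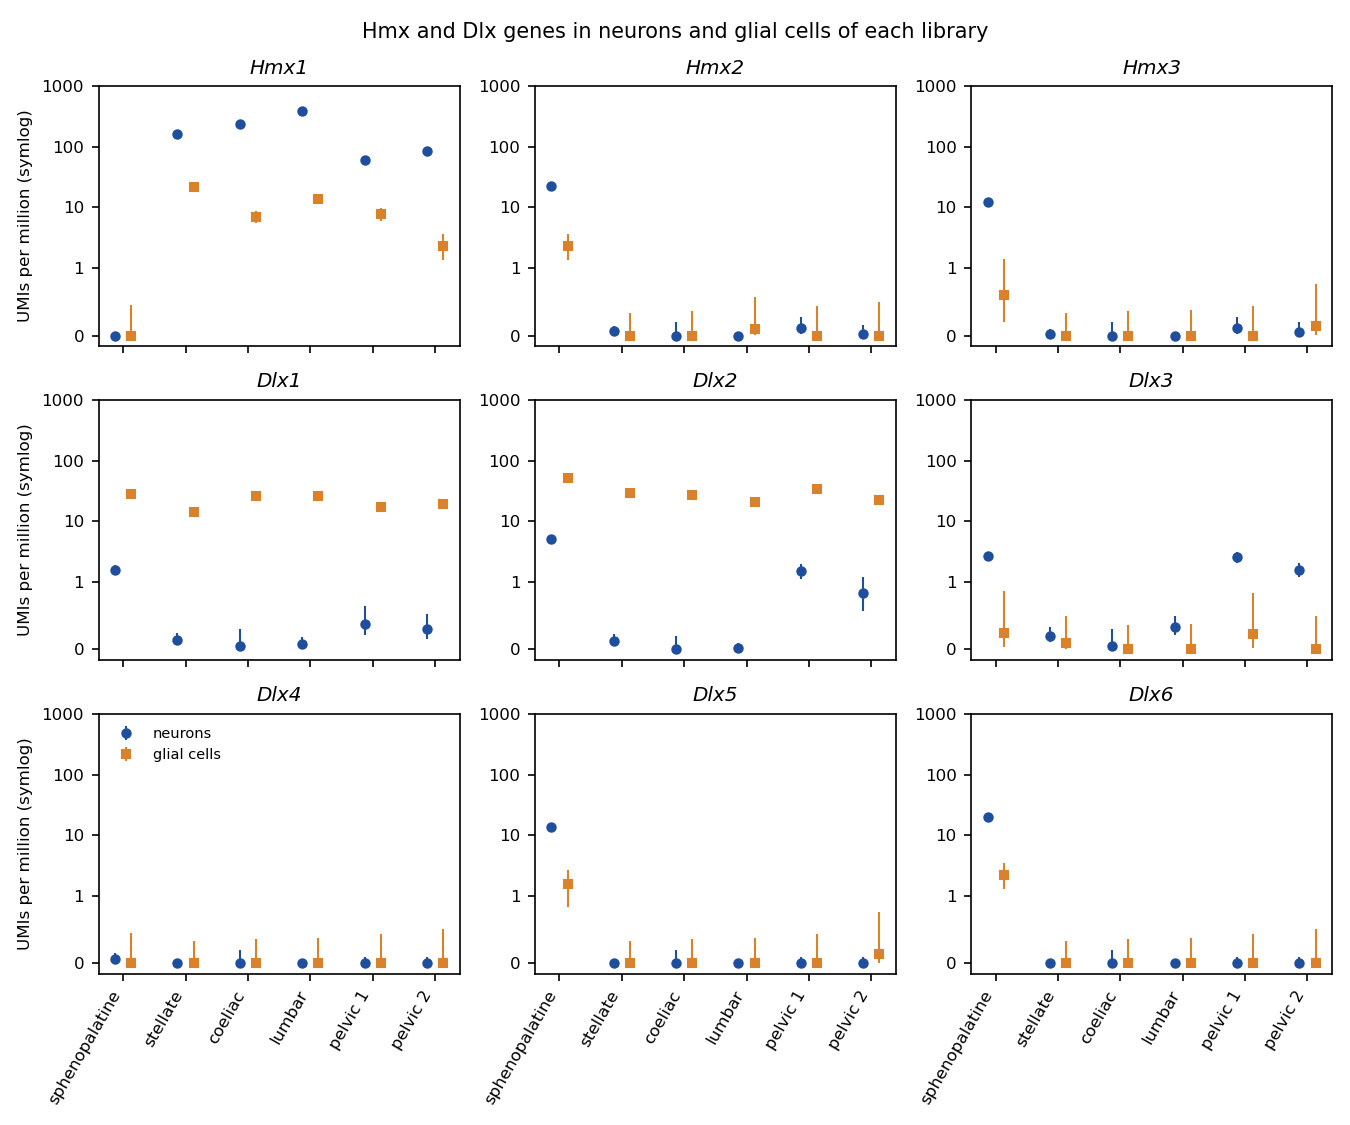
Level of each Hmx and Dlx gene in neurons (circles) and glial cells (squares) of the 6 libraries, as CPM on a symlog axis (linear from 0 to 1), with 95% Poisson intervals for counting error. Hmx1 was at 0 in the sphenopalatine library alone, Hmx2, Hmx3, Dlx5 and Dlx6 were above 10 in sphenopalatine neurons alone, and Dlx1 and Dlx2 were higher in glial cells than in neurons of all 6 libraries.

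Hmx1 was found in the neurons of every sympathetic and pelvic library and in none of the sphenopalatine library. Its level in neurons was 161 CPM (interval 158 to 164) in the stellate ganglion, 234 CPM (227 to 241) in the coeliac complex, 387 CPM (382 to 391) in the lumbar chain, 60.5 CPM (58.0 to 63.1) in pelvic replicate 1 and 84.0 CPM (81.1 to 87.0) in pelvic replicate 2. No Hmx1 UMI was counted among 76019261 UMIs of 1903 sphenopalatine neurons, nor among the 1569 glial cells of that library. A count of 0 there allows a level of up to 0.0395 CPM (3 counts), so Hmx1 was at least 1534-fold higher in pelvic replicate 1, the lowest of the other libraries, and at least 9796-fold higher in the lumbar library. Within the first round the order was stellate, pelvic, sphenopalatine, and within the second it was lumbar, coeliac, pelvic. The pelvic libraries averaged 72.3 ± 16.6 CPM (SD, n = 2), and all 3 sympathetic libraries lay above both. No neighbours in the order stellate, coeliac and lumbar can be set against a spread between animals, since each is 1 library.

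The share of neurons with an Hmx1 UMI was 89.7% in the stellate ganglion (2443 of 2724), 74.7% in the coeliac complex (177 of 237) and 92.2% in the lumbar chain (857 of 930). In the pelvic ganglion it was 64.7% in replicate 1 and 69.9% in replicate 2, or 67.3 ± 3.63% (SD, n = 2). In sphenopalatine neurons a count of 0 allows a share of up to 0.158%. Glial cells are much shallower than neurons and give only a rough measure of free RNA. They held an Hmx1 UMI in 2.55% to 11.9% of cells of the 5 other libraries, at 2.32 to 21.9 CPM, and fibroblasts in 1.41% to 9.84%. With each cell thinned to 2000 UMIs, the share was 10.7% to 51.7% in neurons of those libraries against 0.449% to 4.13% in glial cells, with no cell left out. Thinned to 10000 UMIs, the neuronal shares were 76.5%, 70.7% and 89.0% in the stellate, coeliac and lumbar libraries and 37.9% and 47.8% in the pelvic ones, with 6 to 197 neurons left out of a library, so that the order of the ganglia by share differed from the order by level in the places of stellate and coeliac. At 2000 UMIs the stellate share (27.8%) was below the coeliac one (36.5%), as in the order by level.

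Neurons were gated as noradrenergic by at least 2 UMIs of Th, the rate-limiting enzyme of catecholamine synthesis, with at most 1 UMI of Chat and Slc18a3 together, and as cholinergic by at least 2 UMIs of Chat (choline acetyltransferase) and Slc18a3 (the vesicular acetylcholine transporter) together with at most 1 of Th. No Hmx or Dlx gene entered these gates. Of 217 noradrenergic-gated coeliac neurons, 54 (24.9%) held no Hmx1 UMI. Their median of 77618 UMIs was above the 57133 of those with Hmx1. Why they held none was not tested. In the stellate ganglion 8.42% and in the lumbar chain 3.80% of noradrenergic-gated neurons held none, and there the neurons without Hmx1 had fewer UMIs, 11325 against 27788 and 22775 against 65718. The level per neuron in coeliac noradrenergic-gated neurons ran from 4.59 CPM at the lower quartile to 448 CPM at the upper, and in lumbar ones from 297 to 626 CPM.

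Hmx1 followed the transmitter gates in opposite directions in the pelvic ganglion and the lumbar chain. In pelvic replicate 1 the level was 70.5 CPM in 747 cholinergic-gated neurons and 0.845 CPM in 119 noradrenergic-gated neurons. In pelvic replicate 2 it was 94.0 CPM in 308 cholinergic-gated and 1.65 CPM in 32 noradrenergic-gated neurons. Both noradrenergic-gated values lay below the glial level of the same library, 7.71 and 2.32 CPM. Glial cells of these libraries had medians of 4146.5 and 11979.5 UMIs, against 39534 and 111771.5 in these neurons. The same number of free UMIs thus gives a higher CPM in glial cells, and whether the values were free RNA was not tested. The shares gave the same picture, with 75.8% and 78.2% of cholinergic-gated and 3.36% and 15.6% of noradrenergic-gated neurons holding an Hmx1 UMI, at nearly equal median depth within each library (39534 UMIs in both gates of replicate 1). Hmx1 fell by 6.09 on the log2 scale from cholinergic-gated to noradrenergic-gated sums (SE 0.277, adjusted p = 5.3445e-103, edgeR quasi-likelihood test with library as a covariate and Benjamini-Hochberg adjustment over all genes). It was lower in 2 of 2 libraries, and the p rests on 4 sums whose spread was borrowed across genes. Without library as a covariate the adjusted p was 0.0027497 (edgeR).

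In the lumbar chain the 711 noradrenergic-gated neurons held Hmx1 at 434 CPM, in 96.2% of neurons, and the 37 cholinergic-gated neurons at 6.43 CPM (interval 3.93 to 9.92), in 29.7%. That cholinergic value lay below the 13.7 CPM of lumbar glial cells, and the cholinergic-gated neurons were the deeper ones (median 90639 against 64465 UMIs). The 136 lumbar neurons with both markers held 296 CPM. In the stellate ganglion noradrenergic-gated neurons held 166 CPM and the 77 neurons with both markers 63.4 CPM, while only 5 neurons were cholinergic-gated, none with Hmx1. The coeliac library had no cholinergic-gated neuron. Hmx1 was thus at or under the glial level per UMI in 3 gated classes of enough cells to measure, sphenopalatine cholinergic, lumbar cholinergic and pelvic noradrenergic. It was at 70.5 CPM or more in pelvic cholinergic and all sympathetic noradrenergic classes. Lumbar glial cells had a median of 10470 UMIs, so whether the lumbar cholinergic value was free RNA cannot be told from their level. The difference between the lumbar and pelvic contrasts was not tested, since the lumbar chain gave 1 library.

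**Figure D2:**
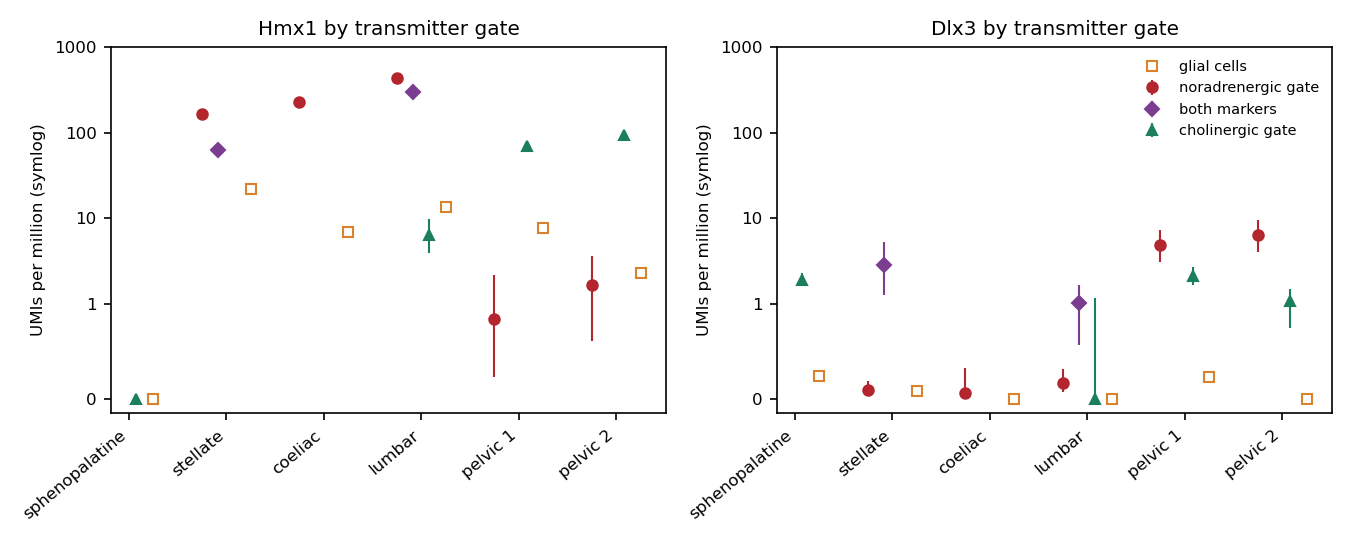
Level of Hmx1 (left) and Dlx3 (right) in neurons gated by Th and by Chat with Slc18a3, in CPM on a symlog axis with 95% Poisson intervals, with the glial level of each library as open squares. Gates of under 20 neurons, and neurons with neither marker, are left out. Hmx1 was above the glial level in the cholinergic gate of both pelvic libraries and in the noradrenergic gate of the 3 sympathetic libraries, and below it in the lumbar cholinergic and both pelvic noradrenergic gates.

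Across all genes, 22.3% of 14122 genes passed the pelvic test at an adjusted p of 0.05, with 10.1% higher and 12.2% lower in noradrenergic-gated neurons. Of the 9 members, 3 had enough counts to be tested, and all 3 passed, Dlx2 and Dlx3 higher and Hmx1 lower. Their log2 changes were 1.83 for Dlx2, 1.79 for Dlx3 and -6.09 for Hmx1, beside a median of 0.0039 over all genes. Of 16 autonomic transcription factors, 13 were tested, and 9 were higher and 2 lower in noradrenergic-gated neurons, with a median of 1.21. Tfap2b, a factor of sympathetic neurons, rose by 6.003 (SE 0.181, adjusted p = 2.4998e-229, edgeR). Gata2, another factor of sympathetic neurons, rose by 2.49 (SE 0.144, adjusted p = 5.6135e-64, edgeR), the opposite direction to Hmx1.

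The genes whose neuronal level was most like Hmx1 over the 6 libraries were Gata2, Tfap2b and Isl1, of which Isl1 gave way to another gene with a pseudocount of 5 or over the first round alone. They were ranked by the root mean square difference of log2(CPM + 1) among 9431 genes with at least 10 CPM in a library. The difference was 0.46 for Gata2, 0.53 for Tfap2b and 0.75 for Isl1, with Pearson r of 0.99 for each over 6 libraries that differ in ganglion, round and depth. Gata2 stood at 0.0658 CPM in sphenopalatine neurons, 226, 288 and 227 CPM in the stellate, coeliac and lumbar libraries, and 69.0 and 56.5 CPM in the pelvic ones. All 3 are transcription factors of developing sympathetic neurons. Likewise Hand1, Gata3, Tbx20, Zfpm2 and Tlx3 of the list of 16 were lowest in the sphenopalatine library, which was the lowest library for 8 of the 16 genes and for 1466 of the 9431.

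Vip, which encodes vasoactive intestinal peptide, was at a higher level in neurons without an Hmx1 UMI in 4 of 8 gated classes. The classes count each pelvic library apart. These 4 were among the 5 classes in which Hmx1 was above the glial level per UMI, and the 3 others are given after them. By share of cells with an Hmx1 UMI, those 3 also lay above the shallower glial cells of their library. The grouping by glial level is thus a way of ordering the values and not a result. These neuropeptides were chosen after their values were seen, and the values are descriptions of each library. Vip stood at 958 CPM in 218 stellate noradrenergic-gated neurons without Hmx1 and at 20.3 CPM in 2372 with it. In the lumbar chain it stood at 338 CPM in 27 neurons without and 4.82 CPM in 684 with Hmx1. In both libraries these neurons without Hmx1 were the shallower ones. Of them 34.4% and 29.6% held a Vip UMI, against 25.3% and 13.9% of those with Hmx1, so a minority carried the level. Whether the gate placed these shallow neurons rightly was not tested. In pelvic cholinergic-gated neurons Vip was at 3119 against 1122 CPM in replicate 1 and at 5042 against 2549 CPM in replicate 2. Coeliac neurons held almost none in either class, 0.449 against 0.778 CPM. Sst, which encodes somatostatin, was higher without Hmx1 in the stellate (155 against 15.9 CPM) and lumbar (166 against 12.01 CPM) libraries. It was lower in the coeliac (33.4 against 48.7 CPM) and pelvic ones (161 against 352 and 91.3 against 425 CPM). Npy, which encodes neuropeptide Y, was lower without Hmx1 in 4 of these 5 classes and higher in the lumbar one (3338 against 2171 CPM). In the 3 classes where Hmx1 was under the glial level, Vip was at 1390 CPM without and 1428 CPM with Hmx1 in lumbar cholinergic-gated neurons, and at 29.2 against 41.0 and 15.0 against 30.1 CPM in the noradrenergic-gated neurons of the pelvic replicates. Npy was at 84.1 against 24.0, 7151 against 6167 and 6225 against 6443 CPM in the same 3 classes, which held 11, 4 and 5 neurons with Hmx1. Sst was lower without Hmx1 in each of these classes, at 1019 against 1171, 6.14 against 11.7 and 1.67 against 4.76 CPM.

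**Figure D3:**
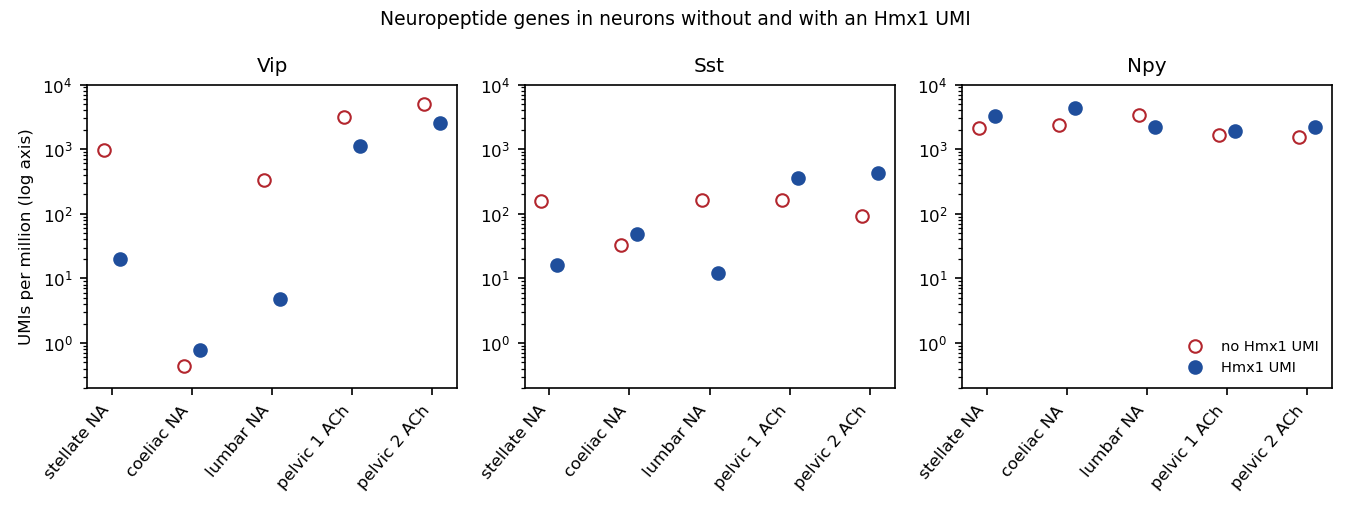
Levels of Vip, Sst and Npy in neurons without (open circles) and with (filled circles) an Hmx1 UMI, in CPM on a log axis, for noradrenergic-gated (NA) and cholinergic-gated (ACh) neurons. The 5 classes in which Hmx1 was above the glial level per UMI are shown, of 8 measured. Vip was higher without Hmx1 in none of the other 3 and in 4 of the 5, by 47.3 times in the stellate and 70.2 times in the lumbar library and by 2.78 and 1.98 times in the pelvic ones.

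Hmx2 and Hmx3 were found in sphenopalatine neurons and hardly elsewhere. Hmx2 stood at 22.4 CPM (interval 21.3 to 23.5) in sphenopalatine neurons, with a UMI in 958 of 1903 (50.3%). It was counted in 4 of 2724 stellate neurons, in none of the coeliac or lumbar neurons, and in 2 and 1 neurons of the pelvic libraries. Hmx3 stood at 12.3 CPM (11.5 to 13.1), with a UMI in 667 neurons (35.1%), and was counted in 2 stellate and 4 and 1 pelvic neurons and in no coeliac or lumbar neuron. Against the 243331168 UMIs of the neurons of the other 5 libraries, Hmx2 was 545-fold higher (counting interval 296 to 1138) and Hmx3 374-fold higher (189 to 868) in sphenopalatine neurons. Sphenopalatine glial cells held Hmx2 in 1.08% and Hmx3 in 0.319% of cells, at a median of 4725 against 38127 UMIs for neurons. All 4 stellate neurons with Hmx2 or Hmx3 also held Hmx1, as did 1 of the 6 in pelvic replicate 1 and not the 1 in pelvic replicate 2. Among all neurons of these libraries the Hmx1 shares were 89.7%, 64.7% and 69.9%. No sphenopalatine neuron held an Hmx1 UMI, so none could hold it with either gene.

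Dlx5 and Dlx6 had the same distribution. Dlx5 stood at 13.5 CPM (12.7 to 14.4) in sphenopalatine neurons, with a UMI in 677 (35.6%), and gave 1 UMI in all other neurons, in the stellate ganglion. That is a ratio of 3294 with a counting interval of 590 to 130221. Dlx6 stood at 20.1 CPM (19.1 to 21.1), with a UMI in 932 neurons (49.0%), and in no neuron of the other libraries, so it was at least 1628-fold higher (3 counts over the 5 libraries). Dlx6os1, a noncoding RNA transcribed across Dlx6 from the opposite strand, was likewise counted in 99 sphenopalatine neurons (5.20%) and in no neuron elsewhere. In sphenopalatine glial cells Dlx5 was in 0.829% and Dlx6 in 0.956% of cells. Among neurons, a level of these 4 genes above 1 CPM was found in a single library, so that ganglion, animals and library cannot be told apart for it. Outside neurons, Dlx5 was also counted in 9 of 86 sphenopalatine cells chosen by mural markers (10.5%), at 22.7 CPM (11.3 to 40.6), and Dlx6 in none of them. The stellate and first pelvic libraries were made with the same reagents in the same round.

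The genes most like these 4 in level over the 6 libraries overlapped. The noncoding 9130024F11Rik was among the 3 nearest for all 4, at 15.2 CPM. Gpr50, an orphan receptor related to melatonin receptors, was the nearest to Hmx2 (root mean square difference 0.10) and to Dlx6 (0.13), at 25.2 CPM. 2610028E06Rik, at 11.2 CPM, was among the 3 nearest for Hmx3 (0.07) and Dlx5 (0.15). Pearson r was above 0.99 for each, which any gene present in 1 library and near 0 in 5 would give.

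Genes on either side were found in all ganglia, apart from Fgfr2, whose annotated model overlaps Hmx2 and Hmx3 on the opposite strand and which was at 0.569 CPM at most. Of 9 protein-coding genes other than members that lie within 100 kb of a member, 3 were highest in sphenopalatine neurons, against 1824 of the 9431 genes at 10 CPM or more, and none was lowest there. Bub3, which codes for a mitotic checkpoint protein and begins 2208 bases beyond Hmx2, stood at 112 CPM in sphenopalatine neurons and 78.0 to 133 CPM elsewhere. Sdhaf3, 73919 bases from Dlx5, stood at 24.5 CPM and 12.4 to 20.7 CPM, and Metap1d, 2919 bases from Dlx1, at 15.5 CPM and 13.7 to 15.6 CPM. Of 10 genes linked to Dlx genes in the forebrain and elsewhere, Slc32a1, the vesicular GABA transporter, and Sp8 were at 0 UMIs in the neurons of all 6 libraries, and Gad1 was at 0.221 CPM at most. Gad2, which makes GABA, was higher in the stellate (4.56 CPM) and coeliac (7.01 CPM) than in the sphenopalatine library (0.210 CPM).

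Most single sphenopalatine neurons held a UMI of at least 1 of Hmx2, Hmx3, Dlx5 and Dlx6. None of the 4 was counted in 242 neurons (12.7%), 1 in 576, 2 in 673, 3 in 336 and all 4 in 76. Detection was higher in deeper neurons. The share with any of the 4 went from 74.5% in the shallowest to 96.1% in the deepest depth quintile, which had median depths of 25382 and 57755 UMIs. Dlx5 went from 16.8% to 56.2%, Dlx6 went from 31.0% to 64.3%, Hmx3 from 26.2% to 43.8% and Hmx2 from 44.6% to 54.9%. A neuron usually held few molecules: of the 958 neurons with Hmx2, 531 held 1 UMI, and the highest count was 12. A UMI share is thus a share of cells with a counted molecule and not of cells that express the gene.

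**Figure D4:**
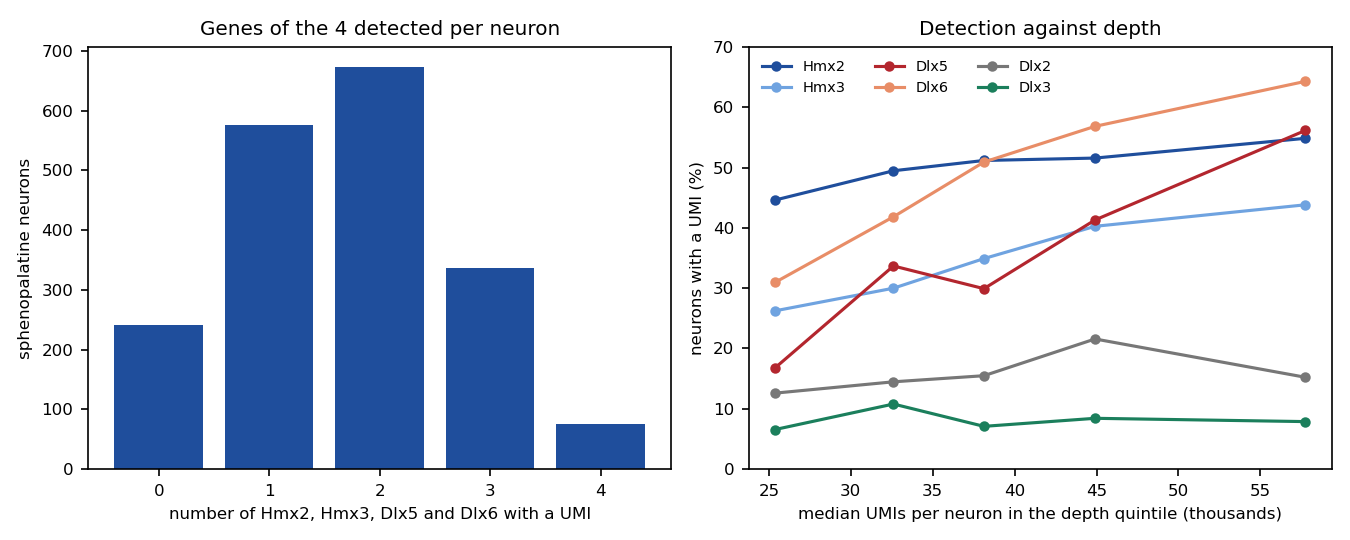
Left, number of sphenopalatine neurons in which 0 to 4 of Hmx2, Hmx3, Dlx5 and Dlx6 had a UMI. Right, percentage of neurons with a UMI of each gene in quintiles of UMI depth, placed at the median depth of the quintile. Most neurons held 1 or 2 of the 4 genes (576 and 673 of 1903), and Dlx5 (16.8% to 56.2%) and Dlx6 (31.0% to 64.3%) were detected more in deeper quintiles, while Dlx3 stayed between 6.56% and 10.8%.

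The odds of co-detection were above 1 for the neighbours Hmx2 with Hmx3 and Dlx5 with Dlx6, and near or below 1 between the families. The neighbours Dlx1 with Dlx2 and Dlx3 with Dlx4 were not among the pairs described in these neurons. Pairs that are not neighbours gave 2.15 (Dlx5 with Dlx3), 1.61 (Dlx2 with Dlx3) and 1.06 (Dlx6 with Dlx3), and were added after values were seen. Hmx2, Hmx3, Dlx2, Dlx5 and Dlx6, 5 members, were in at least 10% of sphenopalatine neurons, and their 10 pairs were described by the odds ratio within quintiles of UMI depth. Dlx5 and Dlx6 gave 1.65, with Dlx6 in 60.1% of the neurons with Dlx5 and 42.8% of those without. Hmx2 and Hmx3 gave 1.45, with Hmx3 in 39.6% and 30.5%. The 4 pairs of an Hmx gene with Dlx5 or Dlx6 gave 0.799 to 0.989, and the pairs with Dlx2 gave 0.777 to 1.06. All combinations of the 4 genes occurred, from 48 neurons with Hmx3 and Dlx5 alone to 219 with Hmx2 alone, beside the 242 with none, so detection of 1 gene did not preclude another. Ebf3, a factor at 32.4 CPM in these neurons, gave 0.625 with Dlx5, 0.744 with Dlx6, 1.11 with Hmx2 and 1.03 with Hmx3. Without regard to depth these were 0.923, 0.999, 1.18 and 1.20, so the values below 1 depended on the adjustment. Zbtb16, a zinc-finger repressor, gave 1.45 with Dlx5 and 0.778 with Hmx2. Sst was in only 12 sphenopalatine neurons, too few to describe. These odds ratios rest on neurons of 1 library, carry no test.

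**Figure D5:**
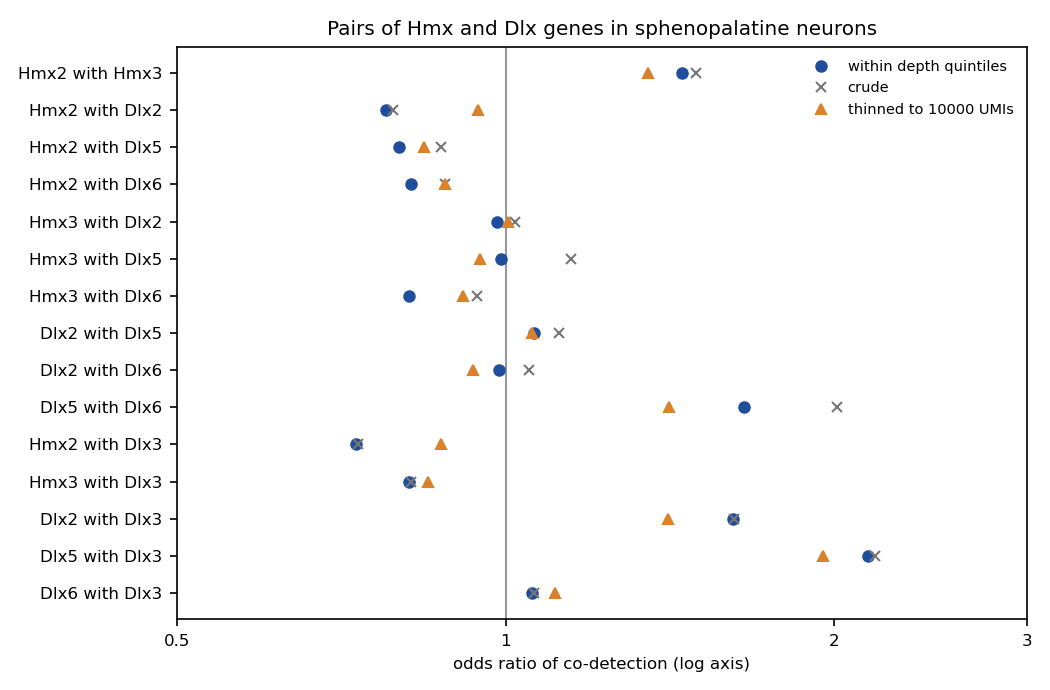
Odds ratio of co-detection for pairs of Hmx and Dlx genes in 1903 sphenopalatine neurons, on a log axis, within depth quintiles (circles), without regard to depth (crosses) and after thinning to 10000 UMIs (triangles). The pairs with Dlx3 were added after its values were seen. Dlx5 with Dlx6 (1.65), Hmx2 with Hmx3 (1.45), Dlx2 with Dlx3 (1.61) and Dlx5 with Dlx3 (2.15, and 1.15 at 2 UMIs or more) lay farthest to the right of 1.

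Dlx3, which is known from placenta, skin and teeth, was found at a low level in both parasympathetic and pelvic neurons. Its level was 2.67 CPM in sphenopalatine neurons (155 of 1903, 8.15%), 2.56 CPM in pelvic replicate 1 (83 of 893, 9.29%) and 1.57 CPM in pelvic replicate 2 (37 of 365, 10.1%). In the stellate, coeliac and lumbar libraries it was 0.202, 0.0556 and 0.332 CPM. The 3 sympathetic libraries were below both pelvic libraries and the sphenopalatine one. The sphenopalatine level did not differ from the pelvic mean of 2.07 ± 0.701 CPM (SD, n = 2) by more than that SD. The SD is between libraries of different rounds, so it does not measure a spread between animals. Glial cells held Dlx3 in at most 0.127% of cells.

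Within the pelvic ganglion Dlx3 was higher in noradrenergic-gated neurons. It stood at 4.86 CPM in noradrenergic-gated and 2.13 CPM in cholinergic-gated neurons of replicate 1, and at 6.33 and 1.08 CPM in replicate 2. The rise was 1.79 on the log2 scale (SE 0.359, adjusted p = 6.9495e-06, edgeR), higher in 2 of 2 libraries, and rested on 23 UMIs in the noradrenergic gate of each. The log2 ratio was 1.19 in replicate 1 and 2.56 in replicate 2. Without library as a covariate the adjusted p was 0.125 (edgeR). In sympathetic ganglia Dlx3 was found among neurons with both markers in 8 of 77 stellate (10.4%) and 10 of 136 lumbar neurons (7.35%). It was in 0.270% and 0.844% of noradrenergic-gated neurons, and in no lumbar cholinergic-gated neuron. No doublet caller was run on these neurons. The neurons with both markers were deeper (medians of 43089 against 26620 and 104880 against 64465 UMIs), and per UMI Dlx3 was at 2.81 against 0.0927 CPM in the stellate and 1.02 against 0.167 CPM in the lumbar library. In the sphenopalatine ganglion it was in 46 of the 186 neurons that passed neither gate (24.7%) and in 6.22% of the 1703 cholinergic-gated neurons, although the first were shallower (30658 against 38972 median UMIs). There, Dlx3 gave an odds ratio of 2.15 with Dlx5, which was 1.15 where at least 2 UMIs of each were asked for (5 neurons with both), and gave 0.390 with Ebf3 and 0.372 with Chat. These pairs were chosen after their values were seen.

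Dlx1 and Dlx2 were genes of glial cells in every ganglion. Dlx1 stood at 28.3 CPM in sphenopalatine glial cells and at 14.5, 26.2, 25.8, 17.1 and 19.5 CPM in those of the stellate, coeliac, lumbar and pelvic libraries, against 1.59 CPM in sphenopalatine neurons and at most 0.382 CPM in other neurons. Dlx2 stood at 50.9, 29.5, 26.8, 20.5, 34.2 and 22.1 CPM in glial cells in the same order, against 5.03 CPM in sphenopalatine neurons and at most 1.50 CPM in others. Glial cells lay above neurons in all 6 libraries for both genes, by 17.8 times for Dlx1 and 10.1 times for Dlx2 in the sphenopalatine library, the smallest ratios. The shares followed despite the lower depth of glial cells: 5.48% to 26.0% held Dlx1 and 10.3% to 24.2% held Dlx2. Thinned to 2000 UMIs, 2.89% to 5.92% of glial cells held Dlx1 against at most 0.303% of neurons, and 4.05% to 10.1% held Dlx2 against at most 1.04%. Fibroblasts held Dlx1 in at most 0.855% and Dlx2 in at most 1.24% of cells.

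The test of neurons against glial cells over the 6 libraries called 75.2% of 14019 genes, 37.8% higher and 37.4% lower in neurons. Of the 9 members 3 had enough counts in enough sums to be tested. Dlx1 fell by 6.04 on the log2 scale in neurons (SE 0.557, adjusted p = 2.6081e-05) and Dlx2 by 5.57 (SE 0.819, adjusted p = 0.00035742), and Hmx1 rose by 4.25 (SE 0.460, adjusted p = 0.00012134), all by the edgeR quasi-likelihood test with library as a covariate. Each of Dlx1 and Dlx2 was lower in 6 of 6 libraries. For Hmx1 the 5 libraries that held it were all higher in neurons, by 7.38 to 36.2 times. Dlx1as, which overlaps Dlx1 on the opposite strand, fell by 5.33 (SE 0.489, adjusted p = 2.5281e-05, edgeR), with 0.977 to 2.47 CPM in glial cells. Msx1, another homeobox gene, fell by 2.94 (SE 0.364, adjusted p = 0.0001317, edgeR). These 2 were all that could be tested of the 10 genes linked to Dlx genes. Of the 16 autonomic transcription factors, 11 of the 15 tested were higher in neurons and none was lower, with a median of 3.09 beside 0.0066 over all genes.

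In single glial cells Dlx1 and Dlx2 were co-detected in each library, with odds ratios within depth quintiles of 1.08 (pelvic replicate 1) to 1.81 (lumbar). Of lumbar glial cells with Dlx1, 28.2% held Dlx2, against 16.7% of those without. The ratio of Dlx2 to Dlx1 UMIs in glial cells was 1.80, 2.04 and 2.01 in the sphenopalatine, stellate and first pelvic libraries of the first round and 1.02, 0.793 and 1.13 in the coeliac, lumbar and second pelvic libraries of the second. The pelvic ratio thus differed between the rounds, which differed in facility and reagents. The cause of the difference was not tested.

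Dlx2 was also counted in sphenopalatine and pelvic neurons, and it is given here beside the glial markers those neurons held. Neurons were chosen for low values of these same markers, so the markers are a lowered measure of glial RNA, and the part of glial RNA in the result was not tested. The level in neurons was 9.87% of the glial level in the sphenopalatine library, where the summed glial markers in neurons were 0.977% of theirs in glial cells. In the pelvic libraries it was 4.38% and 3.80%, against 1.84% and 1.20% for the markers. In the stellate, coeliac and lumbar libraries it was 0.427%, 0% and 0.135%, all below the markers (0.750%, 0.320% and 0.293%). Among the 322 sphenopalatine neurons without any UMI of the 5 glial markers, 33 (10.2%) held Dlx2, at 3.98 CPM. Among such pelvic neurons 7 of 257 and 3 of 108 held it, and the level was 0.817 against 1.50 CPM in all neurons of replicate 1 and 0.542 against 0.840 CPM in replicate 2. Dlx1 was at 5.62% of its glial level in sphenopalatine neurons, at 2.24% and 1.53% in pelvic neurons and at 0.957% or less in sympathetic ones, and 7 of those 322 neurons held it, at 0.633 CPM against 1.59 CPM in all sphenopalatine neurons. The ratio of Dlx2 to Dlx1 UMIs was 3.16 in sphenopalatine and 3.93 and 2.82 in pelvic neurons, above that in glial cells of the same libraries. The pelvic ratios rest on 14 and 11 Dlx1 UMIs. In stellate, coeliac and lumbar neurons the ratio was 0.909, 0 and 0.333, below that in their glial cells, on 11, 1 and 6 Dlx1 UMIs.

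Within the pelvic ganglion Dlx2 stood at 4.23 CPM in noradrenergic-gated and 1.00 CPM in cholinergic-gated neurons of replicate 1 and at 1.93 and 0.708 CPM in replicate 2. The rise of 1.83 on the log2 scale passed the edgeR test over both libraries together (SE 0.473, adjusted p = 0.00086079). The rise was seen in 2 of 2 libraries, on 20 and 7 UMIs in the noradrenergic gate. It did not pass with DESeq2 (adjusted p = 0.21397) or without library as a covariate in edgeR (adjusted p = 0.17968). The summed glial markers were lower in noradrenergic-gated than in cholinergic-gated neurons, 86.0 against 160 CPM in replicate 1 and 62.8 against 104 CPM in replicate 2. No Dlx1 UMI was counted in the noradrenergic-gated neurons of either library, against 14 and 11 in the more numerous cholinergic-gated neurons.

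Dlx4 was almost absent. It was counted in 5 sphenopalatine neurons and 1 stellate neuron, and in no other neuron and no glial cell. A count of 0 in the 930 lumbar neurons allows a share of up to 0.323%, and in the 237 coeliac neurons up to 1.27%. The level in sphenopalatine neurons was 0.0658 CPM (interval 0.0214 to 0.153), beside 2.67 CPM for its neighbour Dlx3.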

How the data were processed

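Single cells of the 6 libraries were measured by droplet 3′ RNA sequencing. The deposited values are raw counts of UMIs per gene and barcode, which the authors made with Cell Ranger 6.0.1 on mm10; the gene annotation used for counting is not given in the sources used here. Barcodes were kept where the number of genes lay between 1500 and 11000 and mitochondrial UMIs made up less than 15%. Counts were normalised with sctransform 0.4.2 in Seurat 5.3.0 to choose cells only. Neurons were taken where the 4 neuronal markers averaged above 3 and the 5 glial ones under 1.15, a threshold set at the lowest point between the histogram's peaks, and the other classes were likewise chosen by markers. No doublet caller was run, and an alternative left out the deepest neurons. The members and lists were chosen with earlier results of these data known. Levels were sums of raw counts per library and class. Since all ganglia but the pelvic gave 1 library, no test was made across ganglia. Sums were tested with edgeR 4.0.16 (quasi-likelihood, TMM, filterByExpr, library as a covariate, Benjamini-Hochberg adjustment) between transmitter gates of the pelvic libraries and between neurons and glial cells, with DESeq2 1.42.0 as an alternative. The SE of an edgeR log2 change was derived from its F statistic. The pelvic fit has 1 residual degree of freedom. Whether the pelvic libraries came from separate animals is not stated, so its p-values cannot be said to measure a spread between animals. The spread was borrowed across genes, so they also do not measure that of a single gene between the libraries. Cells are not replicates, and odds ratios over cells carry no p. The scripts were tested on simulated data. Named genes were the 9 members, the fixed lists and the 3 genes nearest in level to each of Hmx1, Hmx2, Hmx3, Dlx5 and Dlx6. Genomic positions and homeobox sequences came from GENCODE M21 (GRCm38). Some genes and sequences are not reported here.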

Additional observations from a re-analysis of the deposited data

Results flagged for a closer look

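The log2 ratio of the Hmx1 level in noradrenergic-gated to that in cholinergic-gated neurons was 6.08 in the lumbar library, -6.38 in pelvic replicate 1 and -5.83 in pelvic replicate 2. It was singled out because the libraries of the ganglia moved in opposite directions. The difference between the ganglia was not tested, since the lumbar chain gave 1 library.

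Dlx5 was also found outside neurons. In the 5 libraries without the sphenopalatine one, where a single neuron held a Dlx5 UMI, it was counted in 14 of 460 cells chosen by mural markers (3.04%, Wilson interval 1.82% to 5.04%), above the 0.652% that a count of 0 allows. None of these cells held Dlx6, and their median depth was 5668.5 UMIs. In the sphenopalatine library 9 of 86 such cells held Dlx5 (10.5%), at 22.7 CPM, above the 13.5 CPM of its neurons, though on 11 UMIs. Glial cells of the 5 libraries held 1 Dlx5 UMI, in pelvic replicate 2. Fibroblasts held Dlx5 in 0.117% to 0.546% of cells of the 5 libraries and in 8 of 723 (1.11%) of the sphenopalatine one.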

How the results depend on the processing

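Shares of neurons with a UMI depended on depth and on the count asked for. The stellate Hmx1 share was above the coeliac one at full depth and at 10000 UMIs and below it at 4000. With at least 2 UMIs, Hmx1 was in 81.6% of stellate, 89.6% of lumbar and 51.7% and 60.3% of pelvic neurons. Thinned to 10000 UMIs the shares were 76.5%, 89.0%, 37.9% and 47.8%, and thinned to 4000 UMIs they were 46.6%, 72.7%, 19.5% and 26.5%, with 53.0% in the coeliac library. In sphenopalatine neurons the shares with at least 2 UMIs, thinned to 10000 and thinned to 4000 UMIs were 22.4%, 19.8% and 8.90% for Hmx2, 10.6%, 11.5% and 4.90% for Hmx3, 11.4%, 11.5% and 4.95% for Dlx5, and 20.0%, 17.5% and 7.56% for Dlx6. Without the deepest 10% of neurons Dlx5 was in 32.7%. The odds ratio was 1.76 for Hmx2 with Hmx3 at 2 UMIs or more and 2.01 for Dlx5 with Dlx6 without regard to depth. The pelvic test called 1514 genes with DESeq2 and 555 without library as a covariate, against 3149. Hmx1 kept its call under both (adjusted p of 9.2805e-32 with DESeq2 and 0.0027497 in edgeR without the covariate). Dlx2 lost it under both (adjusted p of 0.21397 and 0.17968) and Dlx3 without the covariate (0.125). Leaving out 1 pelvic library gave a log2 change of -6.38 to -5.83 and an Hmx1 share of 64.7% to 69.9%. The calls of Hmx1, Dlx1 and Dlx2 between neurons and glial cells held under all alternatives run. Library as a covariate pairs the classes within each library in both tests, so the fits without it are the unpaired ones; between neurons and glial cells that fit called 9293 genes against 10540. With a pseudocount of 5, 1 of the 3 genes most like Hmx2 and 1 of the 3 most like Dlx6 was shared with the ranking given. The causes of these changes were not tested, and depth limits all shares of low genes.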

Other observations

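Msx1, a homeobox gene from the list linked to Dlx genes, was higher in noradrenergic-gated than in cholinergic-gated pelvic neurons, by 3.01 on the log2 scale (SE 0.683, adjusted p = 9.6513e-05, edgeR). Its level was low, at 0.600 CPM in all neurons of pelvic replicate 1 and 0.379 CPM in those of replicate 2. Msx1 was also higher in glial cells than in neurons (log2 change -2.94 in neurons). Its call under the alternative settings is not given here. Among sphenopalatine neurons, Npy was counted in 33.5% of those with Dlx5 and 20.96% of those without (odds ratio 1.57 within depth quintiles), and in 22.1% of those with Hmx2 and 28.8% of those without (0.653). Chat gave the opposite order, at 0.715 with Dlx5 and 1.58 with Hmx2. These pairs were chosen after their values were seen and carry no test.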
